A study of Homo sapiens with 4 samples.

Results

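The genes of the S100 proteins and the annexins, with AHNAK, AHNAK2 and SRI, were compared between U937-AE and U937-Mt cells. Genes were taken by symbol (S100A and S100B, G, P or Z, S100PBP, and ANXA with a number), with older symbols updated through the gene identifier, and the rule found 34 of the 19775 genes that the arrays name. U937 cells are an established human leukemia line with monocytic features. The U937-AE line is a single clone in which the mouse metallothionein promoter, switched on by zinc, drives AML1/ETO with an HA tag, the fusion protein made by the translocation of chromosomes 8 and 21, whereas the U937-Mt line carries the pSGMtNeo vector without insert and was used as a bulk population. Both lines were kept in 100 µM ZnSO4 for 8 hours, so zinc is shared by both. RNA of 3 extractions was pooled per line and each pool was hybridized to 2 copies of an Affymetrix expression array. There was thus 1 sample per line and no test across the lines, the array copies measure hybridization error only, and the effects of the induced protein and of the choice of a clone cannot be told apart.

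S100 proteins are small proteins with a pair of EF-hands, the loops that bind calcium, and most act as dimers that open a binding face for a partner when calcium rises. Annexins bind phospholipid membranes when calcium is present, and several carry an S100 dimer at their tail: annexin A2 with S100A10, annexin A1 with S100A11, annexin A11 with S100A6. AHNAK is a very large scaffold protein that binds the complex of annexin A2 and S100A10 at the plasma membrane, and sorcin, the product of SRI, is an EF-hand protein that binds annexin A7. In the monocytic and granulocytic lineages the best known members are the calgranulins S100A8, S100A9 and S100A12, which are stored in the cytosol of mature cells, and annexin A1, which dampens neutrophil recruitment.

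The 5 members that were called between the pools are shown by the 250 bases before their start, 5′ to 3′ on the strand of the gene, from RefSeq on GRCh38.p14. They are AHNAK at chr11:62545827-62546076 (minus strand), ANXA11 at chr10:80205809-80206058 (minus strand, the outermost of 3 starts), S100P at chr4:6693628-6693877 (plus strand), S100A11 at chr1:152037005-152037254 (minus strand) and ANXA1 at chr9:73151615-73151864 (plus strand). Capitals mark the letters TGTGGT or TGCGGT, which RUNX proteins such as AML1 are known to bind, and CAGCTG or CACCTG, E-boxes that E-proteins such as HEB are known to bind, on either strand.
AHNAK: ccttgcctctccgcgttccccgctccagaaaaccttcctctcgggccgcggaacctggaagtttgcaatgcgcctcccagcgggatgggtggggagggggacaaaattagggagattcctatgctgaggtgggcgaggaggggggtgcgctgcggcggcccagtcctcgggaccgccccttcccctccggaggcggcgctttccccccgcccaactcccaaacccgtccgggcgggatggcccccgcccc
ANXA11: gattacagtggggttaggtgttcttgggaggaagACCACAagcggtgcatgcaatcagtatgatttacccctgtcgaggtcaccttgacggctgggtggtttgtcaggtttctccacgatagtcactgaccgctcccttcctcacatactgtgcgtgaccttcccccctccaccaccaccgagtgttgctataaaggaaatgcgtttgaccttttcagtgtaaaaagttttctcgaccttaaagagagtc
S100P: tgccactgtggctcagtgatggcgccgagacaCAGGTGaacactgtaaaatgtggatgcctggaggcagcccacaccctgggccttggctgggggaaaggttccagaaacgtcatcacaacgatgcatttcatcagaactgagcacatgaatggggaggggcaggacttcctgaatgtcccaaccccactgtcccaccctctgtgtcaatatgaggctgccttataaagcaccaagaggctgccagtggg
S100A11: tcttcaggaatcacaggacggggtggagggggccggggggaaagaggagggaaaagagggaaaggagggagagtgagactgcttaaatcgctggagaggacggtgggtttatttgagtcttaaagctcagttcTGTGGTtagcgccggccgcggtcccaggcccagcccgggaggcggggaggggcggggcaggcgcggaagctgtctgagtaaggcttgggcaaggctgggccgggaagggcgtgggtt
ANXA1: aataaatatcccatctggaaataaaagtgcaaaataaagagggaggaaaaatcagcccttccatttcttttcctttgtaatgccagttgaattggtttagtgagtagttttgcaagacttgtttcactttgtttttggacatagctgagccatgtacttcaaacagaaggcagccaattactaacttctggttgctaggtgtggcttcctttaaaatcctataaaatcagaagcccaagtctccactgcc

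ANXA11 and S100A11 held TGTGGT, 211 to 216 bases before the start of ANXA11 (on the other strand) and 112 to 117 bases before that of S100A11. At the other starts of ANXA11, CACCTG stood 17 to 22 bases before the middle start and TGTGGT 10 to 15 bases before the innermost one, in windows not shown. S100P held CACCTG 213 to 218 bases before its start, on the other strand. AHNAK and ANXA1 held none of these letters in the window. Over the 35116 windows of the same length in the table, 16.3% held TGTGGT or TGCGGT (10.98% and 5.84% for each) and 28.7% held CAGCTG or CACCTG (13.99% and 17.5%). Windows of 32 members were searched (all but ANXA13 and S100B). S100B had no window, and ANXA13 was left out because members on chromosome 8 were not searched. The 35116 windows were not limited in this way. Of these members 9 had the RUNX letters and 17 the E-box letters in at least 1 of their windows. By window, the count that the shares above refer to, 10 of 47 had the RUNX letters and 21 the E-box letters. Windows of a gene can overlap, as those of S100A8 do, so the same letters can be counted more than once and no excess is read from these counts. A match is a description of the letters, and binding was not analysed here.

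A gene took the signal of its brightest probe set. A signal below the median of its array was raised to that median, called the floor (119.5 and 129.7 on the U937-AE arrays, 146.8 and 153.6 on the U937-Mt arrays), and a gene was called measured where its mean log2 signal reached the mean floor in at least 1 pool. It was called higher or lower when each of the 4 pairings of an array of one line with an array of the other passed 1.5-fold in that direction. Of the 34 members, 19 were measured and 17 of these were above the floor on all 4 arrays. ANXA1 was called higher in U937-AE, 1 of 19 measured members, against 2.6% of all 12934 measured genes. AHNAK, ANXA11, S100P and S100A11 were called lower, 4 of 19, against 6.12% of all measured genes, and the other 14 were not called. The median log2 difference, U937-AE minus U937-Mt, was -0.09 over the 19 members and -0.10 over all measured genes. Both U937-AE arrays lay above both U937-Mt arrays for 4 members and below them for 9, where all measured genes gave 26.3% and 37.1%, and the arrays of the lines overlapped for 6.

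**Figure D1:**
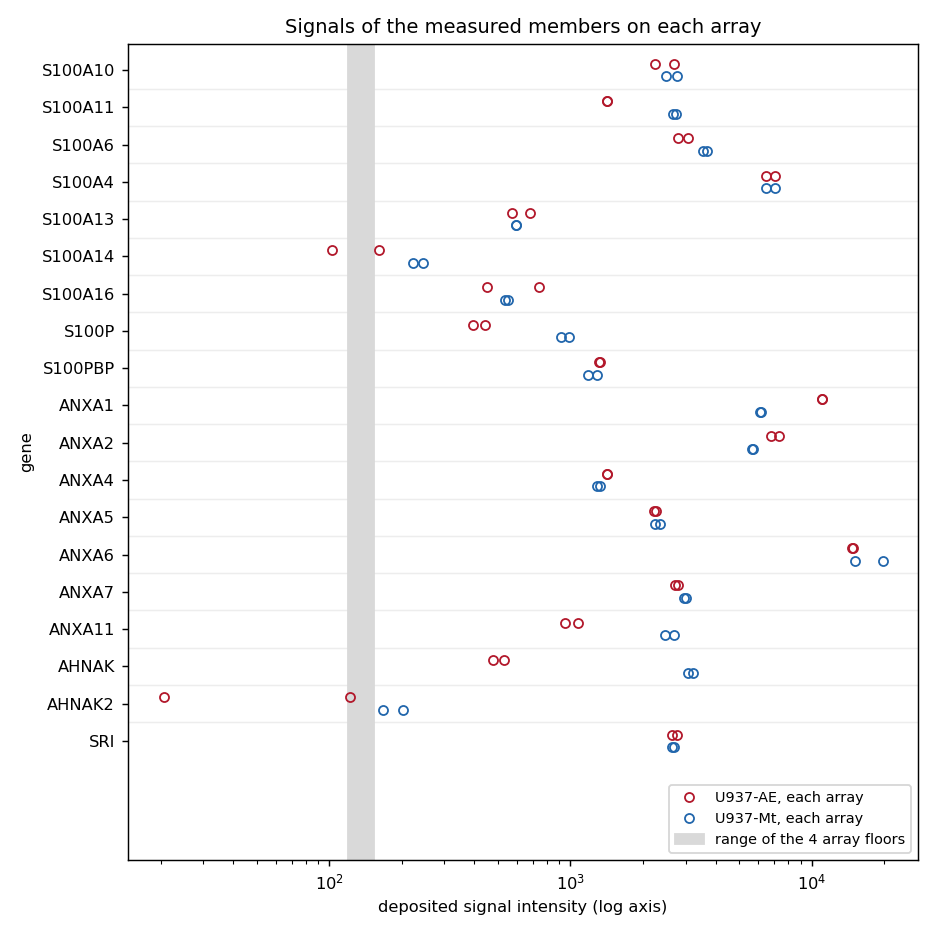
Deposited signal intensity (log axis) of the 19 measured members on each U937-AE array (upper point pair of a row) and each U937-Mt array (lower pair), by role, with the range of the 4 array floors in grey. The pairs of AHNAK, ANXA11, S100P, S100A11 and ANXA1 lie apart, and the U937-AE arrays of AHNAK2 and the first of S100A14 lie at or below the floor.

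RUNX1T1, the gene of ETO, checks the labels: 1 of its probe sets read 1362 and 1299 on the U937-AE arrays against 8.6 and 7.6 on the U937-Mt arrays. None of its other probe sets was called, and most of them stood at the floor on every array, so the check rests on 1 probe set. The hybridization spike-ins, added to every array, were dimmer on the U937-AE arrays than on the U937-Mt arrays, by 1.27-fold, and the 3′ to 5′ signal ratio of GAPDH was 1.05 to 1.09 in U937-AE and 1.09 to 1.12 in U937-Mt, and that of ACTB was 1.21 and 1.25 on the U937-AE arrays versus 1.43 and 1.33 on those of U937-Mt, without overlap. Over all genes 336 were called higher and 791 lower (29.8% of calls higher). After quantile normalization 372 were called higher and 610 lower (37.9% higher). The split was 911 and 387 (70.2% higher) with the arrays shifted to the same median, which adds 0.27 to every log2 difference above the floor. It was 1369 and 290 (82.5% higher) after scaling to the spike-ins, which adds 0.34. Of 6 measured markers of monocytic and myeloid cells 4 were called lower in U937-AE (MPO, CSF3R, ITGAM and LYZ). LYZ was not called with the arrays shifted to the same median or scaled to the spike-ins. CD4 and CSF1R were not called, and CD14 and FCGR1A stood at the floor on every array. The summed signal of the myeloid list was 6555 to 7123 on the U937-AE arrays and 23145 to 24862 on the U937-Mt arrays, and without MPO it was 4997 to 5224 on the U937-AE arrays and 8554 to 8745 on the U937-Mt arrays. The part of these markers in the results below was not tested, and in RNA of whole cultures fewer cells of a type and less RNA per cell cannot be told apart. Of 5 T cell markers CD3D, CD3E, CD3G and CD5 stood at the floor on every array, and CD2 gave 184.0 and 146.2 in U937-AE cells versus 251.9 and 211.3 in U937-Mt cells (-0.49) and was not called. The floor was also the level of 5 of 6 epithelial markers on every array, and none of 3 B cell or 2 erythroid markers was called. CSF1R was called lower when the first U937-AE array (-0.92) or the first U937-Mt array (-1.07) was dropped. The B cell marker CD79B was called higher when the second U937-AE array (0.80) or the first U937-Mt array (0.82) was dropped. Here and below, dropping an array leaves fewer pairings to pass, so no call could be lost and calls also rose over all genes each time.

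The calgranulins were not measured in either line. S100A8, whose protein pairs with S100A9, gave signals of 81.4 and 65.5 in U937-AE cells versus 124.5 and 74.6 in U937-Mt cells. S100A9 gave 9.3 and 56.9 in U937-AE cells versus 39.8 and 47.6 in U937-Mt cells. S100A12, a related ligand of the receptor AGER, gave 75.4 and 23.3 in U937-AE cells versus 123.0 and 91.5 in U937-Mt cells. All 12 of these signals were below the floor of their array, so no direction can be read for the calgranulins at this signal.

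S100A10, the partner of annexin A2, gave 2240 and 2699 in U937-AE cells versus 2755 and 2495 in U937-Mt cells (log2 difference -0.09, range -0.30 to 0.11 over the 4 comparisons). Its arrays overlapped between the lines. ANXA2, which with S100A10 binds plasminogen at the cell surface, gave 6813 and 7289 in U937-AE cells versus 5657 and 5725 in U937-Mt cells (log2 difference 0.31, range 0.25 to 0.37). Both U937-AE arrays of ANXA2 were above both U937-Mt arrays by more than the copies differed, and ANXA2 was not called. It was higher in U937-AE under every scaling of the arrays, with log2 differences of 0.20 to 0.65, and was called under none of them.

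S100A11 and ANXA1, whose proteins bind each other, were called in opposite directions. S100A11, also a partner of other annexins in membrane repair, gave 1415 and 1413 in U937-AE cells versus 2668 and 2752 in U937-Mt cells and was 1.92-fold lower (1.89 to 1.95 over the comparisons). The U937-AE arrays of S100A11 were nearly equal and far below the U937-Mt arrays, and the gene stayed lower but was not called after scaling to the spike-ins (log2 difference -0.60). ANXA1 gave 10989 and 11013 in U937-AE cells versus 6164 and 6136 in U937-Mt cells and was 1.79-fold higher (1.78 to 1.80). It was the only member called higher, held rank 250 from the highest of the 12934 differences, and was called higher under all 4 scalings.

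S100A6, or calcyclin, and ANXA11, which takes part in vesicle traffic and in the last step of cell division, form the third pair. S100A6 gave 3085 and 2792 in U937-AE cells versus 3671 and 3531 in U937-Mt cells (log2 difference -0.29, range -0.39 to -0.19). Both of its U937-AE arrays lay below both U937-Mt arrays, but it was not called, and after scaling to the spike-ins its difference was 0.05. ANXA11 gave 1077 and 945 in U937-AE cells versus 2685 and 2475 in U937-Mt cells and was 2.56-fold lower (2.30 to 2.84). The arrays of ANXA11 did not overlap, and its difference of -1.35 held rank 193 from the lowest.

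AHNAK had the largest difference of the 19 measured members. It gave 529 and 480 in U937-AE cells versus 3086 and 3230 in U937-Mt cells and was 6.27-fold lower (5.83 to 6.74), rank 25 from the lowest of all measured genes. Its log2 difference of -2.65 was -2.66 to -2.30 under the other scalings. AHNAK2, a related scaffold protein, gave 20.6 and 122.5 in U937-AE cells, both below the floor, versus 202.3 and 166.8 in U937-Mt cells. As deposited, AHNAK2 was at least 1.48-fold lower in U937-AE (log2 difference -0.56) and not called. Its log2 difference was -0.30 to -0.22 under the other scalings, where it was not called either. AHNAK2 was called lower when the second U937-Mt array was left out (-0.70), and its U937-AE copies were 2.57 apart on the log2 scale.

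**Figure D2:**
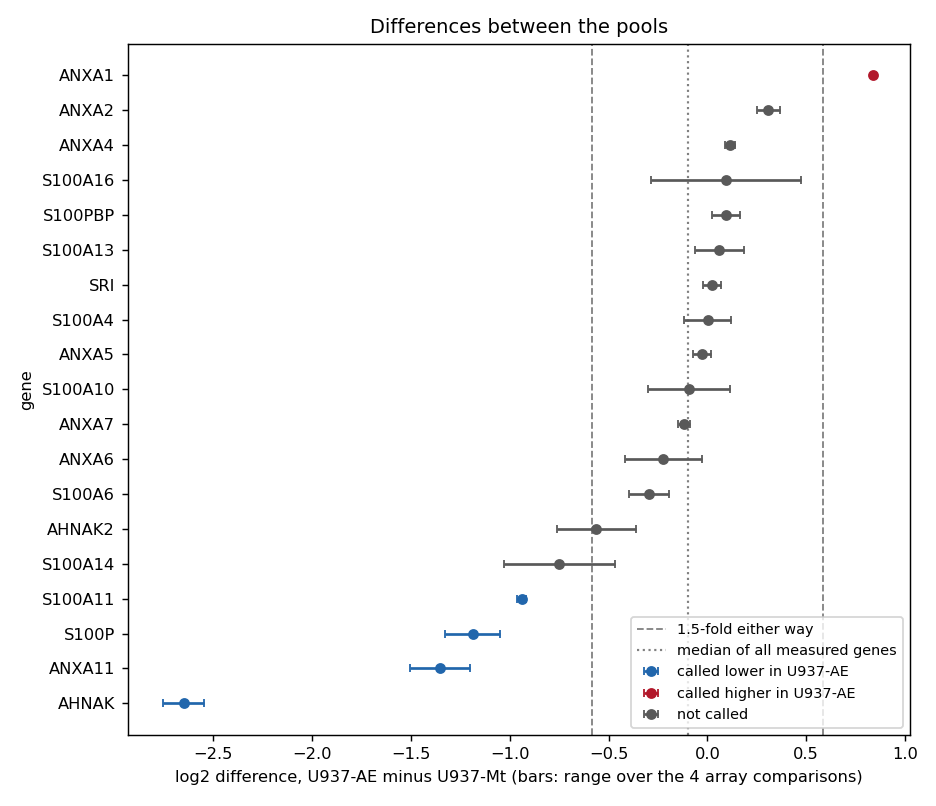
Log2 difference, U937-AE minus U937-Mt, of the 19 measured members (points) with the range over the 4 comparisons of single arrays (bars). Dashed lines mark 1.5-fold and the dotted line the median of all measured genes. AHNAK at -2.65, ANXA11 at -1.35, S100P at -1.19 and S100A11 at -0.94 lie wholly below the dashed line, and ANXA1 at 0.84 lies above it.

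Of the other S100 genes, S100P was called lower. S100P, a secreted and cytosolic S100 protein that binds ezrin, gave 395 and 440 in U937-AE cells versus 990 and 911 in U937-Mt cells and was 2.28-fold lower (2.07 to 2.51), rank 282 from the lowest. S100PBP, whose nuclear protein was named for binding S100P, gave 1311 and 1322 in U937-AE cells versus 1177 and 1291 in U937-Mt cells (log2 difference 0.09). The S100PBP arrays did not overlap, but the difference was smaller than that between its U937-Mt copies (0.13), and EZR, the gene of ezrin, had a difference of 0.57 and was not called.

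S100A4, which binds non-muscle myosin, gave 7040 and 6470 in U937-AE cells versus 7027 and 6474 in U937-Mt cells (log2 difference 0.00, range -0.12 to 0.12). S100A13, which takes part in the release of growth factors without a signal peptide, gave 677 and 571 in U937-AE cells versus 595.8 and 595.8 in U937-Mt cells (0.06, range -0.06 to 0.18). S100A16, a broadly expressed S100 protein, gave 453 and 743 in U937-AE cells versus 551 and 535 in U937-Mt cells (0.10, range -0.28 to 0.48). In all 3 of these genes the U937-AE arrays lay on both sides of a U937-Mt array. S100A14, best known from epithelia, gave 102 and 161 in U937-AE cells versus 244 and 222 in U937-Mt cells (-0.75, range -1.03 to -0.47). Its first U937-AE array was below the floor and it was not called, but dropping the second U937-AE array gave a call lower (-0.96), and so did dropping the second array of U937-Mt (-0.82).

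The remaining 8 S100 genes, S100A1, S100A2, S100A3, S100A5, S100A7, S100B, S100G and S100Z, were not measured, and neither were ANXA3, ANXA9, ANXA10 and ANXA13. Together with the calgranulins, these 15 members had signals of 3.2 to 133.9, and 14 of them stood at the floor on all 4 arrays. The exception was S100A1, whose second U937-AE array stood at 133.9. ANXA8 was not analysed as a member because each of its probe sets also names another gene. The brighter of these gave 270 and 327 in U937-AE cells versus 306 and 256 in U937-Mt cells (log2 difference 0.09).

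None of the other annexins was called. ANXA4, an annexin of secretory cells, gave 1424 and 1416 in U937-AE cells versus 1293 and 1330 in U937-Mt cells (log2 difference 0.11, range 0.09 to 0.14). ANXA5, the annexin used as a probe for exposed phosphatidylserine, gave 2224 and 2271 in U937-AE cells versus 2343 and 2240 in U937-Mt cells (-0.03, range -0.08 to 0.02). The ANXA4 arrays did not overlap, whereas those of ANXA5 did. ANXA6, an annexin with a doubled core, gave 14867 and 14724 in U937-AE cells versus 19664 and 15148 in U937-Mt cells (-0.22, range -0.42 to -0.03). Its U937-Mt copies were 0.38 apart, more than the difference between the lines. ANXA7, the partner of sorcin, gave 2705 and 2794 in U937-AE cells versus 3000 and 2968 in U937-Mt cells (-0.12, range -0.15 to -0.09). SRI gave 2636 and 2768 in U937-AE cells versus 2638 and 2681 in U937-Mt cells (0.02, range -0.02 to 0.07), with overlapping arrays. The differences of ANXA5, ANXA6, ANXA7, SRI, S100A4, S100A6 and S100A10 changed sign with the scaling of the arrays, so no direction is given for them.

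**Figure D3:**
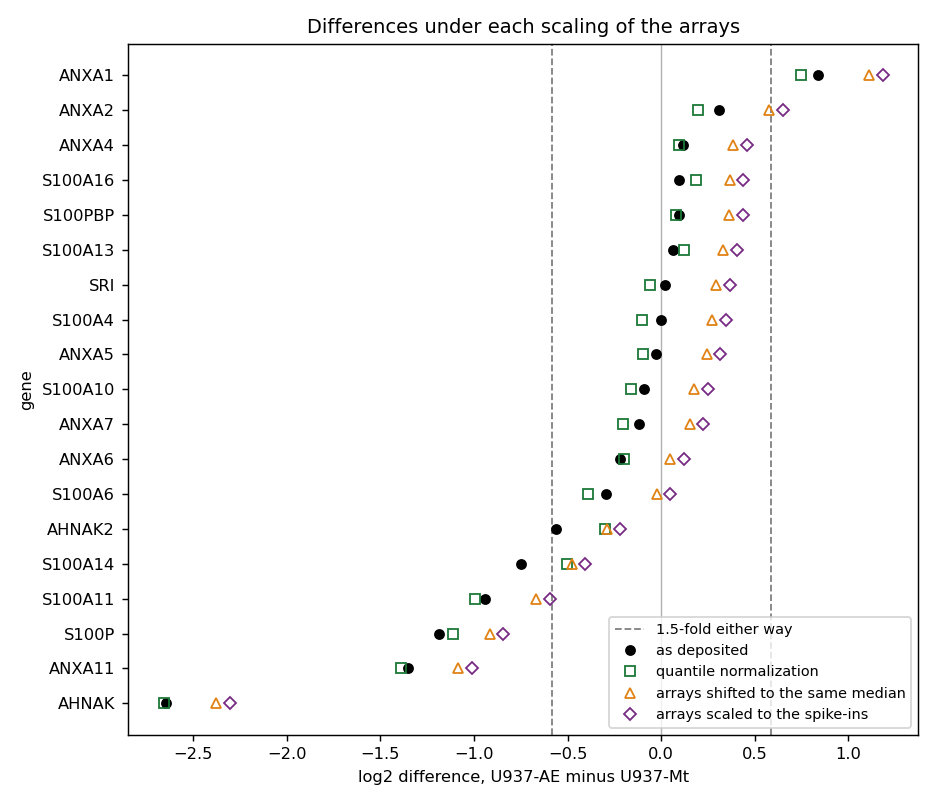
Log2 difference, U937-AE minus U937-Mt, of the 19 measured members with the arrays as deposited (filled circles), after quantile normalization (squares), shifted to the same median (triangles) and scaled to the spike-ins (diamonds), with 1.5-fold dashed. For 12 members the sign was the same under all 4, and S100A11 came nearest to the dashed line of the 4 members called lower (-0.60 with the spike-ins).

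Most of the S100 genes lie on chromosome 1, where the 15 S100A genes span 1651 kb and those from S100A6 to S100A1 span 97 kb. Along the 15 S100A genes there, measured and unmeasured genes were interspersed, with 7 measured and 8 not. In the stretch that holds the 9 genes S100A6, S100A5, S100A4, S100A3, S100A2, S100A16, S100A14, S100A13 and S100A1, in that order, 5 were measured and none was called. S100A11, the only S100A gene called, lies next to S100A10 in this order, and S100A10 had a difference of -0.09. These genes lie far from the rest: S100A11 ends at base 152037004, and S100A9, the next in order, starts at base 153357854. S100P lies apart on chromosome 4.

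**Figure D4:**
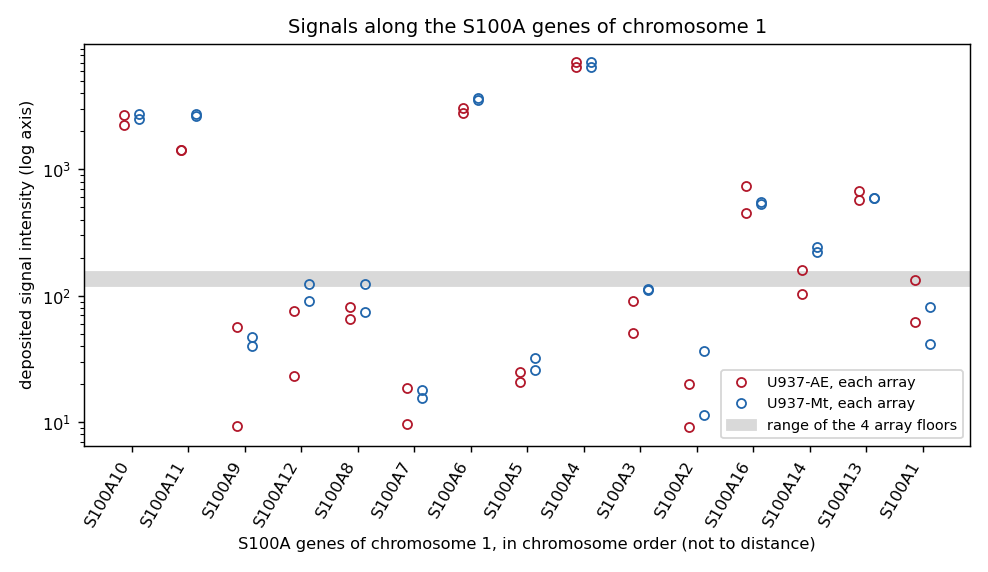
Deposited signal intensity (log axis) of the 15 S100A genes of chromosome 1 in chromosome order (horizontal axis, not to distance), with each U937-AE array left and each U937-Mt array right, and the range of the 4 array floors in grey. The 7 measured genes lie above the grey band in at least 1 pool, and S100A11 is the gene whose 4 points part most clearly above the floor.

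Other probe sets of the same gene were set beside those used, and 16 of the 34 members had several. Of the other probe sets of ANXA11, 1 gave 104.5 and 179.4 in U937-AE cells versus 300.8 and 285.7 in U937-Mt cells and was called lower (-1.002), and 1 gave 388 and 301 in U937-AE cells versus 461 and 554 in U937-Mt cells and was not called (-0.56). All 3 ANXA11 probe sets had both U937-AE arrays below both U937-Mt arrays. The brightest of 4 other AHNAK probe sets in U937-Mt gave 20.4 and 28.3 in U937-AE cells, both below the floor, versus 149.7 and 219.5 in U937-Mt cells, and none of the 4 was called. With the mean of all its probe sets AHNAK had a difference of -0.85 and was still called lower. The second probe set of ANXA1 stood at the floor on every array, and S100A11 and S100P had 1 probe set each. These 3 calls thus rest on 1 probe set each, as does that of AHNAK. The other bright probe sets of ANXA2 had differences of 0.28 and 0.34, and 1 that also names SNU13 had 0.11. The bright ANXA2 probe sets are all of the kind that can pick up near-identical sequences of other genes, so the ANXA2 values are uncertain in that respect, and without such probe sets ANXA2 was at the floor. Second probe sets of S100PBP (0.11), ANXA4 (0.07), ANXA7 (0.01), SRI (0.13) and S100A13 (0.18) were not called either. The second probe set of S100A13 was below the floor on the second U937-Mt array and ranged from -0.47 to 0.82 over the comparisons. That of ANXA6, at the floor on both U937-Mt arrays, was not called and had the opposite sign (0.16) to the probe set used (-0.22).

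Genes that work with these proteins were counted by list, beside 2.6% of all measured genes called higher, 6.12% called lower and a median difference of -0.10. Of the receptors for S100 proteins and annexin A1 outside the cell 3 of 7 were measured, and TLR4, a receptor of S100A8 and S100A9, was called lower with 220 and 216 in U937-AE cells versus 377 and 460 in U937-Mt cells (-0.93), but it was not called under any of the other 3 scalings (-0.75 to -0.59). FPR1 and FPR3 stood at the floor on every array, and FPR2, the main receptor of annexin A1, gave 145.5 and 116.6 in U937-AE cells versus 163.0 and 215.7 in U937-Mt cells and was not called. In the plasminogen system, which annexin A2 with S100A10 engages, 3 of 5 genes were measured. PLAU, the plasminogen activator urokinase, was called higher with 481 and 556 in U937-AE cells versus 238 and 292 in U937-Mt cells (0.97), while its receptor PLAUR gave -0.37 with overlapping arrays.

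None of 10 measured targets of S100 proteins inside the cell was called, and their median difference was 0.08. EZR was called higher when the second U937-AE array was dropped (0.70). Of 19 other EF-hand proteins and calpastatin, all measured, 4 were called lower and none higher, with a median of -0.12, and CAST, the gene of calpastatin, was called higher when the second U937-Mt array was dropped (0.65). CAPN2, the large subunit of a calpain protease, gave 931 and 878 in U937-AE cells versus 2220 and 2459 in U937-Mt cells (-1.37). ACTN1, an actin crosslinker, gave 2559 and 2246 in U937-AE cells versus 5266 and 5183 in U937-Mt cells (-1.12). The other 2 called were NUCB2 (-0.81) and EFHD2 (-0.80), which lost the call with the arrays shifted to the same median or scaled to the spike-ins. Of 16 measured other proteins that bind phospholipid with calcium 2 were called lower and none higher, with a median of -0.04, and CPNE2 was called higher when the first U937-AE array was dropped (0.71). CPNE3, a copine, gave 185 and 183 in U937-AE cells versus 461 and 459 in U937-Mt cells (-1.32). UNC13D, which primes granules for release, gave 47.5 and 148.9 in U937-AE cells, the first below the floor, versus 298 and 367 in U937-Mt cells (-1.31), and was not called with the spike-ins (-0.97).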

How the data were processed

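Each line gave 1 RNA pool and 2 Affymetrix HG-U133 Plus 2.0 arrays, 4 in all, and their number limits the precision. The deposited values are linear signal intensities, which the authors computed for every probe set with GCOS at default parameters (version not given in the sources used here), which subtracts background and scales each array, so that the trimmed mean was 499.9 on every array. Of 54675 probe sets 41097 had 1 gene symbol, 41043 of them updated by gene identifier. Probe sets with several symbols (1801) or none (11777) named no gene.

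From these intensities the floor, the log2 values and the fold rule given above were computed, after the methods' comparison of each U937-AE array with both U937-Mt arrays. A fold against a pool with both arrays at the floor is a lower bound for the scaling used. Every member is named, with array values for called members, those above the floor on all arrays and the pairs, and of each list up to 4 called genes with the largest difference. FPR2, PLAUR, EZR, CAST, CPNE2 and the second probe sets were added with their values known. The members and lists were chosen with earlier results of these data known. Of the listed partner and marker genes, those not counted are not reported here. RefSeq promoters were cut to the 250 bases before the start. Alternatives were other floors, scalings, thresholds and probe sets, limma, the methods' t-test and each array left out. The software was limma 3.58.1 in R 4.3.3 and, in Python 3.11.15, matplotlib 3.10.9, scipy 1.17.1, pandas 2.3.3 and numpy 2.4.6.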

Additional observations from a re-analysis of the deposited data

How the results depend on the processing

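Among the S100 and annexin genes, 1 was called higher and 4 lower. None was called higher under a 2-fold rule in all comparisons, with the mean of all probe sets of a gene, or by the methods' t-test at a fold above 2, before or after Benjamini-Hochberg adjustment, and the count was 0 each time. In these settings ANXA1 was 0.84 on the log2 scale, under 2-fold, or 0.28 with the mean that takes in its probe set at the floor. The methods' t-test called 3 lower (AHNAK, ANXA11 and S100P) before that adjustment and 0 after it, as for all genes. Leaving out each array in turn could not lose a call, since a gene that passed in all 4 pairings passes in those left. S100A14 and AHNAK2 were added to the genes called lower and no member to those called higher, while calls also rose over all genes. limma, whose p-values cover only the spread between array copies, called 1 member higher and 5 lower, against 513 and 1142 over all genes. The replicate block with the array number as pairing also called 1 higher and 5 lower, against 570 and 1433. S100A14 was added in both. The array numbers only name the copies: same-numbered deviations correlated with r = 0.049 over 12934 genes. Without a floor, ANXA3 was added at signals below every floor (14.7 and 3.2 in U937-AE, 30.8 and 22.2 in U937-Mt). The members' median of -0.09 was 0.18 with the arrays shifted to the same median and 0.25 with the spike-ins, shifts of 0.27 and 0.34 that all measured genes shared. It was -0.16 after quantile normalization, where that of all measured genes was -0.03, and -0.03 with the mean of all probe sets, where that of all measured genes was -0.15. It was -0.22 to -0.021 with 1 array left out, the lowest without the second U937-AE array. Scaled to the spike-ins, 3 genes were called lower, without S100A11. Over all genes the counts of 336 higher and 791 lower ranged over 0 to 1369 and 0 to 1806. Signals near the floor limit S100A14 and AHNAK2.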
